A study of Mus musculus with 33 samples.

Results

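The 7 genes described here are markers of mature olfactory sensory neurons and genes that bring odorant receptors or their G protein to the cell surface. They are Omp, S100a5, Stoml3 and Umodl1, followed by Rtp1, Rtp2 and Ric8b, taken by symbol from both deposited tables. All 7 were found among the 14613 genes of the epithelium table and again among the 14744 genes with values in the table of sorted neurons. The mice were 3 weeks old and were homozygous-null (KO), heterozygous-null (Het) or wild type (WT) for Dnmt3a, a de novo DNA methyltransferase. How the null allele was made and which cells it affects is not given in the sources used here.

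RNA from the main olfactory epithelium (MOE) came from animals of each genotype left for 60 min with 80 µL of an equal mix of amyl acetate, acetophenone and octanal (odor) or of water, after 10 min in a clean cage. The 6 groups had 1 library each, KO odor, KO water, Het odor, Het water, WT odor and WT water, all made with NuGEN Encore Complete from 100 ng. RNA from mature olfactory sensory neurons (mOSN) sorted by flow cytometry came from 2 libraries per genotype, which the deposited table joins into 1 pooled value. Both KO mOSN libraries were made with NuGEN from 100 ng and both WT ones with ScriptSeq from 200 ng, with 1 of each in Het. Kit and genotype thus cannot be told apart in any comparison of the pooled mOSN values. The marker used for sorting and the number of animals per library are not given in the sources used here. Ribosomal RNA was depleted in all of them.

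As background, each olfactory sensory neuron expresses 1 odorant receptor gene out of a large family, matures from basal progenitors, and is replaced throughout life. An odorant receptor leaves the endoplasmic reticulum poorly by itself and is carried to the surface by the receptor transporting proteins Rtp1 and Rtp2. In the cilia it acts through the olfactory G protein alpha subunit Gnal, which is folded and stabilised with the help of Ric8b, a chaperone and guanine nucleotide exchange factor. Omp encodes the small cytoplasmic olfactory marker protein, which speeds the response to odor and is the classical sign of maturity. S100a5 encodes a calcium-binding protein whose level follows odor-driven activity, Stoml3 a stomatin-like protein of the ciliary membrane, and Umodl1 a membrane protein with a zona pellucida domain.

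The reads recovered from the MOE values totalled between 9410063 (KO water) and 17639584 (Het odor), and the median gene had between 222 and 396. All values are the deposited read densities per gene length (an RPKM scale), and the 2 tables were normalized separately, so no test runs across them. Dnmt3a (ENSMUSG00000020661), the targeted gene, was 48.3 and 56.1 in KO odor and water, 66.6 and 50.3 in Het odor and water, and 89.0 and 84.4 in WT odor and water. In mOSN it was 56.2 in KO, 119.9 in Het and 174.7 in WT. The part of the gene that was removed is not given, so reads over the rest can still count.

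The sorted neurons carried the mature markers at the top of their transcriptome. S100a5 and Stoml3 ranked 2nd and 3rd of 14744 genes in each of the 3 genotypes. Omp ranked 14th in KO, 11th in Het and 4th in WT. Rtp1 ranked 27th, 32nd and 31st, Ric8b 34th, 29th and 28th, and Rtp2 39th, 41st and 48th in KO, Het and WT. Umodl1 was the least abundant at ranks 290, 217 and 200. Markers of the supporting sustentacular cells (7 genes, none at 0) summed to 420, 365 and 354 in KO, Het and WT mOSN, against 19634 to 34295 in the 6 MOE libraries.

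Within mOSN the levels fell into steps. S100a5 had a pooled value of 34194 in KO, 48793 in Het and 46290 in WT, and Stoml3 had 27686 in KO, 38989 in Het and 36561 in WT. Omp, the classical marker, lay below both with 7612 in KO, 10449 in Het and 16660.5 in WT. It was the member with the widest spread between genotypes. The transport genes followed, with Rtp1 at 4283 in KO, 5038 in Het and 4786 in WT, and Rtp2 at 3336 in KO, 4095 in Het and 3674 in WT. Ric8b was at 3579 in KO, 5235 in Het and 5505 in WT, so it lay above Rtp1 in Het and WT and below it in KO. Umodl1 was at 852 in KO, 1269.7 in Het and 1347 in WT. All 7 members had their lowest value in KO, where 49.1% of all genes do.

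**Figure D1:**
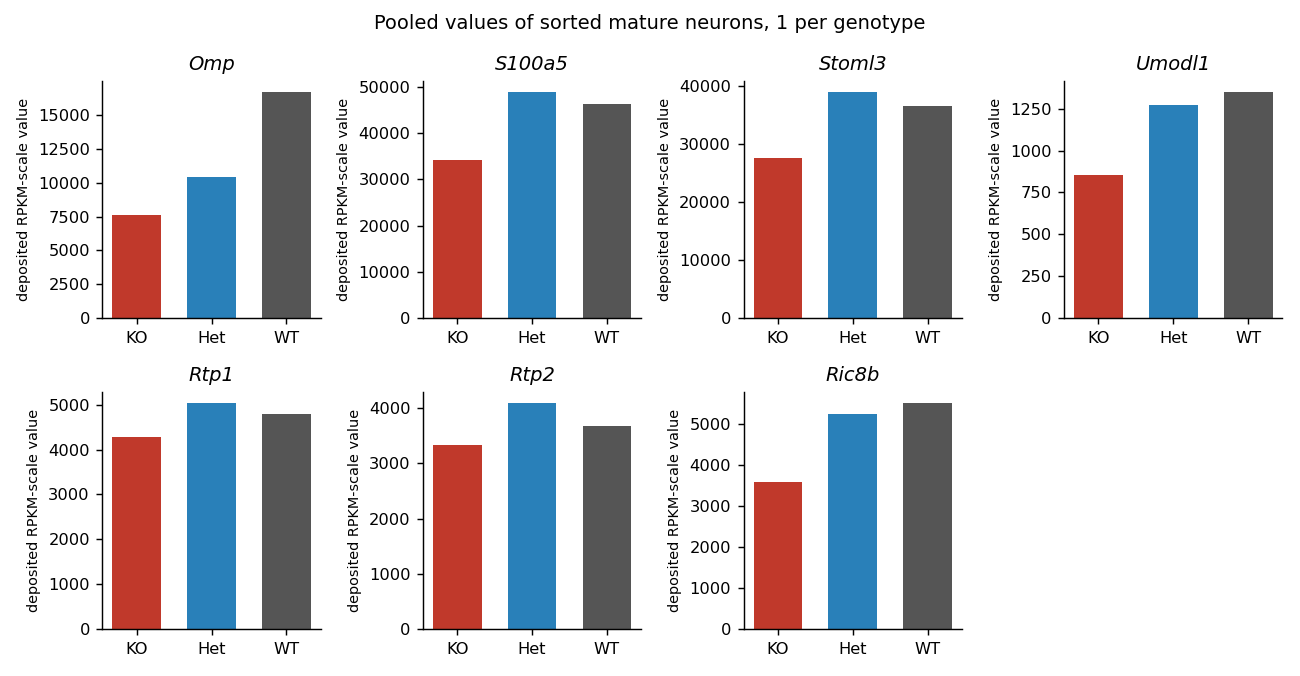
Deposited pooled values (RPKM scale, from 0) of the 7 genes in sorted mature neurons, with 1 bar per genotype and no error because the authors' table joins 2 libraries per genotype. Omp is at 7612 in KO, 10449 in Het and 16660.5 in WT, while Rtp1 stays between 4283 and 5038.

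Against WT, Omp in KO mOSN was at 0.457 of the WT value. It was the 1 member of 7 at least 2-fold lower, where 3.07% of all genes were. Umodl1 (0.632), Ric8b (0.650), S100a5 (0.739) and Stoml3 (0.757) followed, and Rtp1 (0.895) and Rtp2 (0.908) were closest to WT. The median over all genes was itself -0.14 on the log2 scale, near the -0.16 of Rtp1 and the -0.14 of Rtp2. With each column divided by its median ratio, Omp stood at -0.99 instead of -1.13 on the log2 scale, just inside 2-fold, and Rtp1 at -0.02. In Het mOSN, Omp was at 0.627 of WT while the other 6 lay between 0.943 (Umodl1) and 1.11 (Rtp2), and 0 of 7 were 2-fold lower (3.07% of all genes). KO, Het and WT were thus in ascending order for 3 members, Omp, Umodl1 and Ric8b, an order that 32.7% of all genes show. Kit use ran in the same order, with NuGEN for both KO libraries, 1 Het library and neither WT library. Genotype and kit therefore cannot be told apart in this order or in Het over WT. These are pooled values with no test.

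Markers of some other cells also differed by genotype in mOSN. The 4 horizontal basal cell markers summed to 77.1 in KO, 17.4 in Het and 9.8 in WT, and were each at least 2-fold higher in KO than in WT, where 19.3% of all genes were. The 5 endothelial and mesenchymal markers summed to 52.9, 35.5 and 24.5 in KO, Het and WT, with 5 of 5 higher in KO than in WT. Their log2 median was 0.78 for KO over WT, against -0.14 over all genes. Of the 7 immature neuron markers, 2 were higher in KO than in WT, Gap43 (1.48 times) and Gng8 (1.68 times), and 5 were lower, with a log2 median of -0.14, as over all genes. None of the listed markers was at 0. The part of these cells and of the library kit in the KO and Het values was not tested.

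In the whole epithelium the members differed between libraries to very unequal extents. Omp (ENSMUSG00000074006) was 5752 in KO odor, 3295.5 in KO water, 249 in Het odor, 1582 in Het water, 2717 in WT odor and 5962 in WT water. Its highest value was 23.9 times its lowest, against a median of 1.56 among the 3968 genes with a mean of 100 or more, of which 99.5% had a smaller ratio. In Het odor Omp ranked 1594th of 14613 genes and in WT water 32nd. The low value rests on 717 reads, with an exact 95% Poisson interval of 231 to 268 on the value scale (counting error only), far below the 1531 to 1634 of Het water. Both Het libraries lay below all KO and WT libraries.

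S100a5 (ENSMUSG00000001023) was 8822 in KO odor, 8746 in KO water, 1785 in Het odor, 3941 in Het water, 7712 in WT odor and 13119 in WT water. Stoml3 (ENSMUSG00000027744) was 11768 in KO odor, 9478 in KO water, 2171 in Het odor, 4147 in Het water, 7942 in WT odor and 9320.0 in WT water. Both were lowest in Het odor and next lowest in Het water. For S100a5 WT water stood above the rest, whereas for Stoml3 both KO libraries stood above both WT ones. Umodl1 (ENSMUSG00000054134) was 411 in KO odor, 234 in KO water, 126 in Het odor, 127 in Het water, 359 in WT odor and 286 in WT water. The Het libraries were again lowest and nearly equal, and odor exceeded water in KO and WT.

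Among the transport genes, Rtp1 (ENSMUSG00000033383) was 1116 in KO odor, 974 in KO water, 524 in Het odor, 557 in Het water, 769.9 in WT odor and 1049.8 in WT water. Rtp2 (ENSMUSG00000047531) was 623.5 in KO odor, 622.8 in KO water, 298 in Het odor, 432 in Het water, 479 in WT odor and 557 in WT water. These carriers varied least, with a highest value 2.13 and 2.09 times the lowest, and 83.8% and 82.9% of those 3968 genes had a smaller ratio. Rtp1 exceeded Rtp2 in every library, by 1.29 to 1.88 times in MOE and by 1.23 to 1.30 times in the pooled mOSN values. Ric8b (ENSMUSG00000035620) was 3249 in KO odor, 1410.4 in KO water, 548 in Het odor, 690.4 in Het water, 1125 in WT odor and 2307 in WT water, a span of 5.93 times. KO odor was its highest library, and WT water lay between KO odor and KO water.

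**Figure D2:**
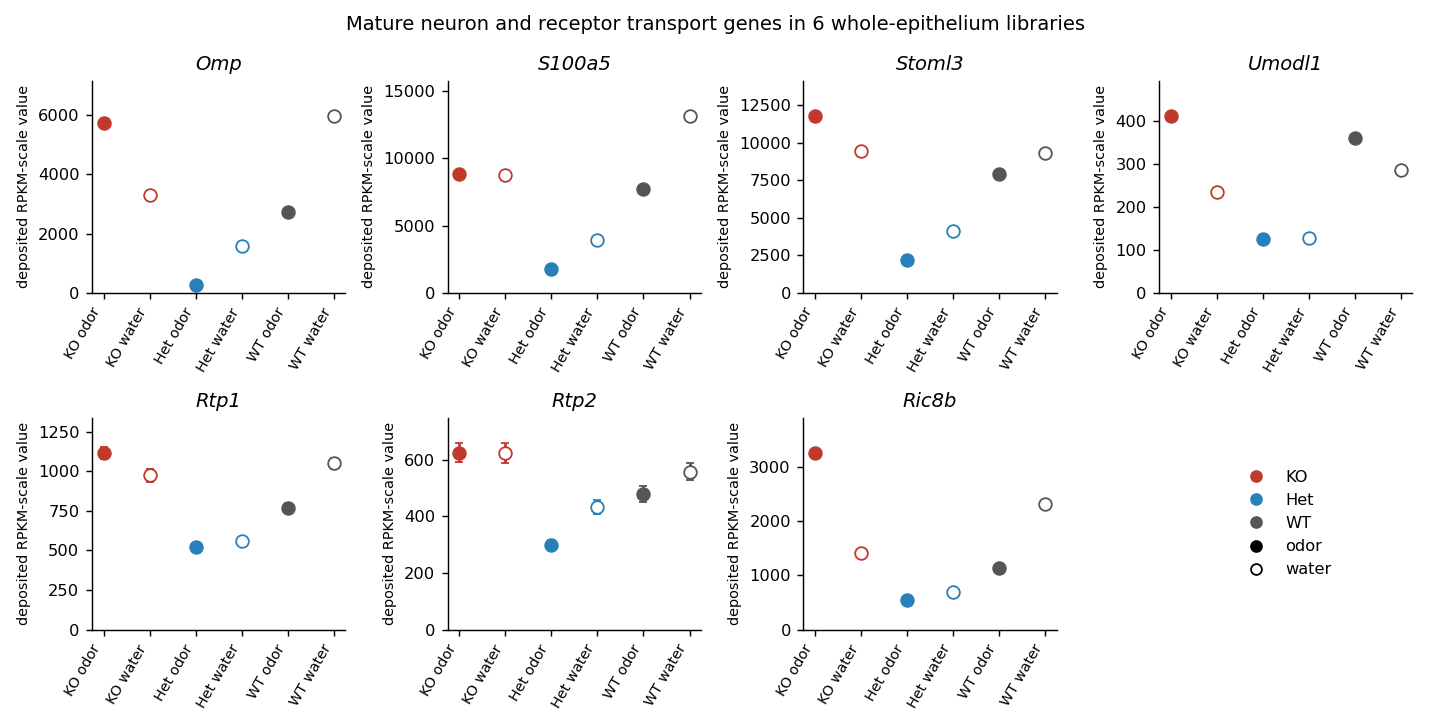
Deposited values (RPKM scale, from 0) of the 7 genes in the 6 whole-epithelium libraries; filled points are odor, open points water, and bars are exact 95% Poisson intervals of the recovered reads (counting error only, often smaller than the point). Both Het libraries lie below all KO and WT libraries in every panel, and Het odor is the lowest of all.

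In order of level, Stoml3 and S100a5 led in every library, with S100a5 ahead in WT water alone (1.41 times Stoml3, against 0.750 to 0.971 in the other 5). Omp came next except in Het odor, where Ric8b (548), Rtp1 (524) and Rtp2 (298) all stood above Omp (249). Ric8b and Omp were both above Rtp1, Rtp2 and Umodl1 in the other 5 libraries. The 95% counting intervals of neighbours in this order overlapped in 3 places. Those of Ric8b and Rtp1 did so in Het odor (532 to 564 and 503 to 547). Those of S100a5 and Stoml3 did so in Het water (3814 to 4072 and 4069 to 4228) and in WT odor (7528 to 7899 and 7830 to 8056). Such overlap is not a test of the difference. Umodl1 was lowest in 6 of 6 libraries. On the log2 scale each pair of members was positively correlated over the 6 libraries, from Pearson r = 0.748 (Umodl1 and Rtp2) to 0.969 (Omp and S100a5, and Stoml3 and Rtp2), as a description of libraries that share 1 scaling.

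Dnmt3a, the targeted gene, encodes an enzyme that methylates the CpG dinucleotide. Whether CpG number and spread between libraries are linked was not tested. Shown are promoters of the member that varied least between libraries (Rtp2) and of a pair that varied more (Stoml3 and Ric8b, with highest values 5.42 and 5.93 times the lowest). They are the 250 bases before the RefSeq start (GRCm38.p6), 5′ to 3′, with each CpG in capitals. RefSeq entries were matched for 5 of 7 members, S100a5, Stoml3, Umodl1, Rtp2 and Ric8b; Omp and Rtp1 are named only.
Stoml3 (chr3:53488457-53488706, plus strand): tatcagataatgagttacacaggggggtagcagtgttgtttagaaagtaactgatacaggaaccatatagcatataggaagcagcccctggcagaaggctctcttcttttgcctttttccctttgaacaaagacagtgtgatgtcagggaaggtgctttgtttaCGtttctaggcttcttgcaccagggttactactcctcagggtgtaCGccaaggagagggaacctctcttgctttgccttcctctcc
Rtp2 (chr16:23930795-23931044, minus strand): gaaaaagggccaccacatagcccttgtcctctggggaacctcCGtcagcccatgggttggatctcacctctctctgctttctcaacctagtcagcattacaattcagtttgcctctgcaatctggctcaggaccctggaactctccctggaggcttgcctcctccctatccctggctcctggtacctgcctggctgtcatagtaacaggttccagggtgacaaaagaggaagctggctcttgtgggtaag
Ric8b (chr10:84917363-84917612, plus strand): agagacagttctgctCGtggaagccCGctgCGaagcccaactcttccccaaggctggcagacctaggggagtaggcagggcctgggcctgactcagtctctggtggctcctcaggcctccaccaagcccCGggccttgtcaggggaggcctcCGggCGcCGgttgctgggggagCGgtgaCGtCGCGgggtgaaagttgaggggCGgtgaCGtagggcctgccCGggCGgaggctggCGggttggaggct
Rtp2 had 1 CpG, Stoml3 2, S100a5 3, Umodl1 6 and Ric8b 16, where the median of 32851 such windows was 6. The core of the motif bound by Olf/EBF factors, CCCNNGGG, which reads the same on both strands, was found in 2 of 5 windows (Rtp2 and Umodl1) and in 11.8% of all windows. The longer palindrome TCCCNNGGGA, which contains that core, was found in 0 of 5 and in 0.779% of all windows. Methylation at these sites was not analysed here.

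In Het against WT, which asks what loss of 1 Dnmt3a copy changes in the epithelium, all 7 members were lower. The fit was limma on log2(value + 0.5) over 14602 genes, genotype and treatment together, two-sided, with p adjusted by Benjamini-Hochberg. Omp differed by -2.68 ± 0.76 (log2, SE), S100a5 by -1.92 ± 0.38, Stoml3 by -1.52 ± 0.39 and Umodl1 by -1.34 ± 0.24. Ric8b differed by -1.39 ± 0.52, Rtp1 by -0.73 ± 0.22 and Rtp2 by -0.52 ± 0.20. None passed (limma adjusted p = 0.706 for each), as limma called 0 of 14602 genes higher and 0 lower (0% each) for this comparison. At an unadjusted p under 0.05 all 7 were lower, against 3.99% of all genes, and 395 genes were higher and 582 lower. In bulk tissue, fewer mature neurons and less of these RNAs per neuron cannot be told apart.

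The Het values did not overlap the WT values for any of the 7, with Het lower, where 18% of all genes show this. The 95% counting intervals kept Het below WT as well for 6 of 7, the exception being Rtp2 with values of 407 to 458 in Het water and 452 to 507 in WT odor. Het also lay below KO and WT together for all 7, against 11.6% of all genes. With odor, Het over WT ratios ran from 0.0917 for Omp to 0.681 for Rtp1, and 5 of 7 were at least 2-fold lower (7.6% of all genes). With water they ran from 0.265 for Omp to 0.776 for Rtp2, again with 5 of 7 at least 2-fold lower (4.41% of all genes). Rtp1 and Rtp2 were within 2-fold in both. Without the Het odor library the fitted difference was -1.43 for Omp, -1.54 for S100a5, -1.03 for Stoml3, -1.05 for Umodl1, -0.75 for Rtp1, -0.31 for Rtp2 and -1.18 for Ric8b. Without Het water it was -3.93 for Omp. Without WT odor it was -2.12 for Ric8b, and without WT water -0.65 for Ric8b and -0.48 for Rtp1.

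KO against WT showed no common direction. Differences were 0.11 ± 0.76 for Omp, -0.20 ± 0.38 for S100a5, 0.30 ± 0.39 for Stoml3, -0.05 ± 0.24 for Umodl1, 0.21 ± 0.22 for Rtp1, 0.27 ± 0.20 for Rtp2 and 0.41 ± 0.52 for Ric8b. None passed (limma adjusted p = 1.00 for each), and limma called 0 genes in either direction (0% each); at an unadjusted p under 0.05 it had 185 genes higher and 141 lower. The KO and WT libraries did not overlap, with KO higher, for 2 of 7 members, Stoml3 and Rtp2, against 12.4% of all genes. For Stoml3 the 95% counting intervals of KO water (9338 to 9619) and WT water (9200.3 to 9441) overlapped. With odor all 7 were higher in KO, where 50.1% of all genes were, led by Ric8b at 2.89 times and Omp at 2.12 times WT, the 2 members at least 2-fold higher (7.05% of all genes). With water 5 of 7 were lower in KO, where 50.9% of all genes were, led by Omp at 0.553 and Ric8b at 0.611 of WT. The sign for Omp turned with the scaling, to -0.050 with quantile normalization. Without KO odor the fitted difference was below 0 for Omp (-1.24), Stoml3 (-0.15), Rtp1 (-0.019) and Ric8b (-0.53). Without KO water it was above 0 for S100a5 (0.29) and Umodl1 (0.28), and without WT odor below 0 for Rtp1 (-0.038) and Ric8b (-0.33).

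**Figure D3:**
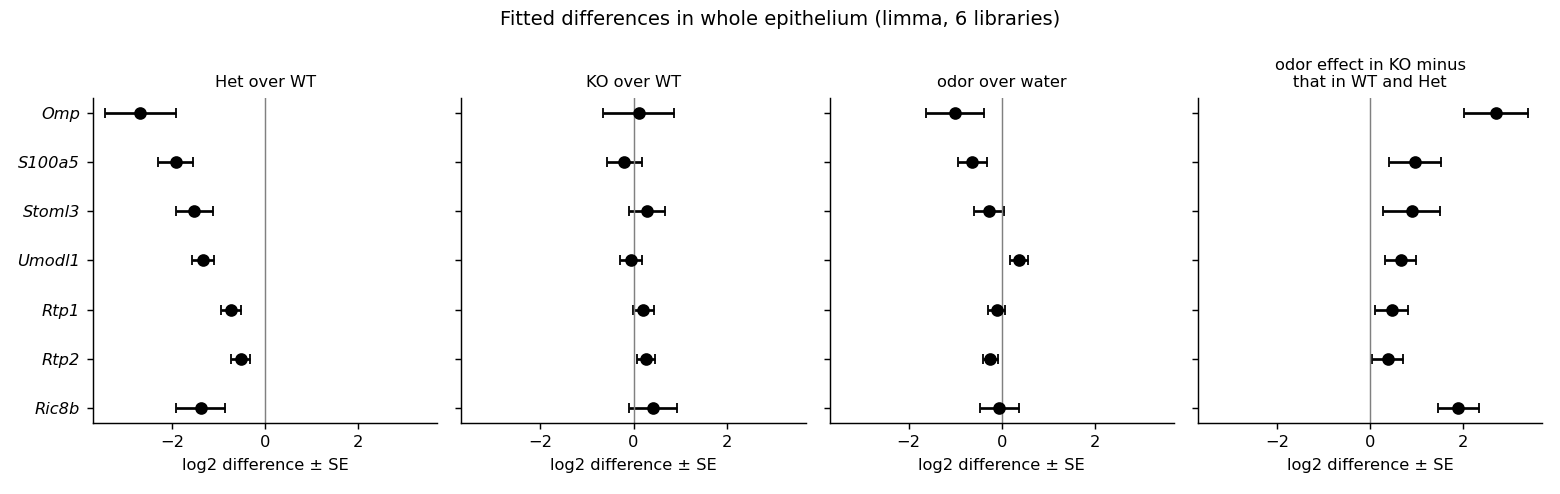
Fitted log2 differences with standard errors for the 7 genes in whole epithelium, from limma on 6 libraries, with 0 marked by a vertical line. Het over WT lies left of 0 for all 7, from -2.68 (Omp) to -0.52 (Rtp2), KO over WT scatters about 0, and the difference in odor effect lies right of 0 for all 7.

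The odor comparison asks what exposure changed. Over the genotypes, Omp differed by -1.0 ± 0.62, S100a5 by -0.63 ± 0.31 and Umodl1 by 0.37 ± 0.20, and the other 4 lay between -0.28 and -0.06. The Omp value was -0.17 without the Het libraries and -1.90 without the KO libraries. None passed (limma adjusted p from 0.882 to 0.990), whereas 2 genes of 14602 (0.0137%) passed upward, the immediate early genes Fos and Egr1, named here after their values were seen. The ratios differed by genotype. Omp with odor was 1.75 times its water value in KO, 0.157 in Het and 0.456 in WT. Ric8b was 2.3 times in KO, 0.794 in Het and 0.487 in WT, the 1 member of 7 at least 2-fold higher in KO (6.22% of all genes).

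Among the other members the KO ratios lay between 1.00 and 1.76. S100a5 with odor was 1.01 times its water value in KO, 0.453 in Het and 0.588 in WT, and Stoml3 was 1.24, 0.523 and 0.852 times. Members at least 2-fold lower with odor numbered 2 in Het, Omp and S100a5 (6.93% of all genes), and 2 in WT, Omp and Ric8b (7.72%). Rtp1 was 1.15 times in KO, 0.941 in Het and 0.733 in WT, and Rtp2 1.00, 0.690 and 0.860 times. Umodl1 was 1.76, 0.989 and 1.26 times. In all, 6 of 7 members were higher with odor in KO and lower in Het and in WT, the exception being Umodl1; 16.7% of all genes share that sign pattern.

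The difference of the odor effect in KO from the common effect in Het and WT was 2.70 ± 0.69 for Omp and 1.89 ± 0.44 for Ric8b (log2, SE; limma adjusted p = 0.494 and 0.460). Those were the 2 of 7 members with an unadjusted p under 0.05, against 3.75% of all genes upward. The other 5 lay between 0.38 (Rtp2) and 0.97 (S100a5), with a limma adjusted p of up to 0.855. Limma called 0 genes in either direction (0% each); at an unadjusted p under 0.05 the numbers were 548 higher and 491 lower. The Omp difference was 3.47 against Het alone and 1.94 against WT alone. This fit has 1 residual degree of freedom and takes Het and WT to respond alike, while the Omp ratios were 0.157 in Het and 0.456 in WT.

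Ratios within a library do not depend on library scaling. Stoml3 per Omp was 2.05 in KO odor, 2.88 in KO water, 8.71 in Het odor, 2.62 in Het water, 2.92 in WT odor and 1.56 in WT water. For Stoml3, Het odor thus stood apart, while Het water was inside the range of the KO and WT libraries. Rtp1 per Omp was 0.194, 0.295, 2.1, 0.352, 0.283 and 0.176 in the same order, and Ric8b per Omp 0.565, 0.428, 2.20, 0.436, 0.414 and 0.387. All 6 other members were highest per Omp in Het odor, where Omp itself was lowest. With odor, 0.212% of all genes had a lower Het over WT ratio than Omp. In Het, 0.520% had a lower odor over water ratio, so this count describes Omp more than the other members. In mOSN all 6 were higher per Omp in KO and in Het than in WT. Stoml3 per Omp was 3.64 in KO, 3.73 in Het and 2.19 in WT. Rtp1 per Omp was 0.563 in KO, 0.482 in Het and 0.287 in WT. Most genes share this direction, since 2.11% of all genes had a lower KO over WT ratio than Omp in mOSN. For Het over WT the share was 6.50%, so the direction describes Omp more than the other 6.

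**Figure D4:**
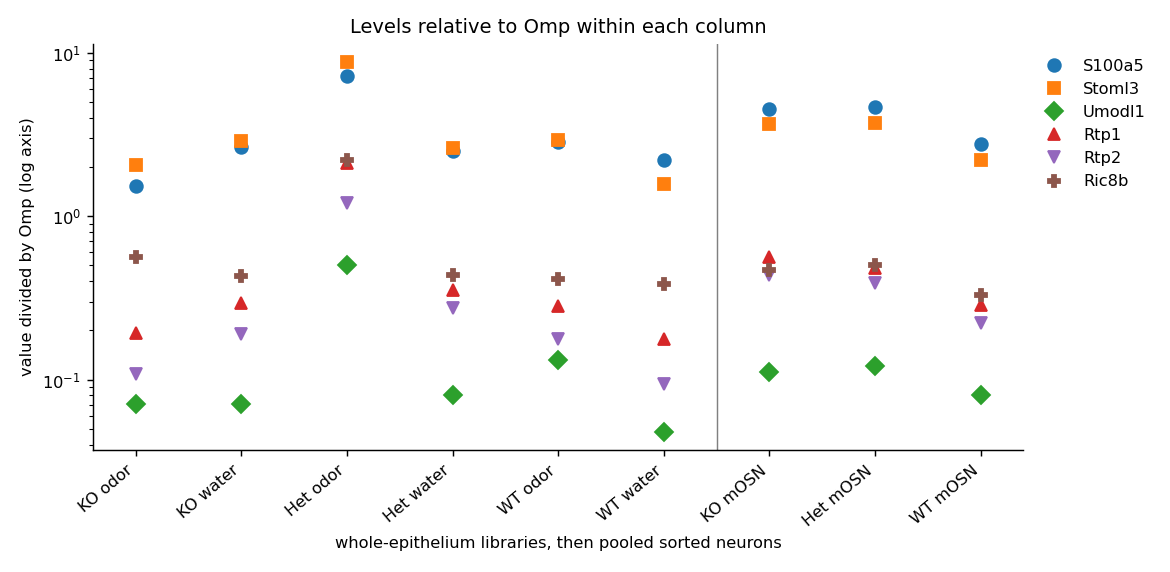
Value of each of the other 6 genes divided by that of Omp in the same column (log axis), for the 6 whole-epithelium libraries and, right of the line, the 3 pooled mOSN values. Het odor, where Omp itself was lowest, stands highest for every gene, with Stoml3 at 8.71 times Omp.

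The Omp gene lies within that of Capn5, a calpain, and whether counting used strand is not given, so reads could pass between them. Capn5 was 26.8 in KO odor, 72.1 in KO water, 76.9 in Het odor, 73.3 in Het water, 104.8 in WT odor and 31.6 in WT water. It was lowest in the 2 libraries with the most Omp, and the Pearson r of their log2 values was -0.56 over 6 libraries, as a description. In mOSN Capn5 was 42.2 in KO, 43.6 in Het and 70.5 in WT. How reads shared by the similar genes Rtp1 and Rtp2 were counted is not given either.

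The genes most like each member over the 6 libraries, by Pearson r on the log2 scale among 13522 genes with a mean of 5 or more, included those named here, with r between 0.992 and 0.999. They were Mmp16, Senp7 and Stxbp5l for Omp, Lsm1, Olfr1395 and Nol4 for S100a5, and Enox1, Glb1l2 and Clip4 for Stoml3. For Umodl1 they were Ptprg and Ptprj, for Rtp1 Rbm27, Gng13 and Olfr169, for Rtp2 Plk1s1, Mapk1ip1 and Sfi1, and for Ric8b Polr3gl, Glo1 and Olfr239. These r are the highest of a search over many genes with 6 libraries and are a description only. Stxbp5l was 54.0 in KO odor, 40.9 in KO water, 10.1 in Het odor, 28.7 in Het water, 40.6 in WT odor and 52.6 in WT water, so it was lowest in both Het libraries, as Omp was, over a narrower range. Gng13, the G protein gamma subunit that works with Gnal, was 1065 in KO odor, 950.2 in KO water, 554 in Het odor, 625 in Het water, 820.1 in WT odor and 1049 in WT water.

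Paralogs differed in how far they followed. Stom, the stomatin gene related to Stoml3, was 5910 in KO odor, 3910 in KO water, 1478 in Het odor, 1800 in Het water, 4130 in WT odor and 4013 in WT water. Like the members, Stom was lowest in both Het libraries (Het over WT -1.32 on the log2 scale, limma adjusted p = 0.706), and in mOSN it was 8972 in KO, 12888 in Het and 13367 in WT. Rtp4, an interferon-induced relative of Rtp1, was 89.9 in KO odor, 76.0 in KO water, 36.4 in Het odor, 63.9 in Het water, 37.6 in WT odor and 11.5 in WT water, and under 10 in each mOSN column. Its difference was 1.96 for KO over WT and 1.19 for Het over WT (limma adjusted p = 1.00 and 0.706). Reep1, another aid of receptor export, had a Het over WT log2 difference of -0.81, and Ric8, the older symbol of the Ric8b paralog Ric8a, differed by 0.07. Rtp3 is not among the symbols listed in either table. Of the 19 relatives measured in MOE, 15 were higher and 4 lower in Het than in WT, with 0 passing and a median of 0.29, against 0.03 over all genes; the 3 largest were Reep2 (1.97), Stom and Rtp4.

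The transduction genes downstream of the receptor lay with the members. Of 12, 11 were lower in Het than in WT in MOE, with a median of -0.95 (0.03 over all genes). None passed limma (0 of 12), and 9 were lower at an unadjusted limma p under 0.05, against 3.99% of all genes. The largest differences were those of the channel subunits Cnga4 (-1.68) and Cngb1 (-1.20) and of Gnal (-1.25). Gnal was 2804 in KO odor, 1972 in KO water, 726 in Het odor, 1103 in Het water, 1978 in WT odor and 2289 in WT water. Gnas, the stimulatory G protein subunit of most other cells, was the 1 gene that was higher (0.28). Of 12 other genes of mature olfactory neurons, 12 were lower in Het (median -0.55), with 0 passing, led by the adhesion gene Kirrel2 (-1.47), Lrrc3b (-1.47) and the transcription factor Ebf4 (-1.0).

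Odorant receptors, the cargo of Rtp1 and Rtp2, were lower in Het than in WT for 514 of 590 genes, with 0 passing. Their median was -0.90, against 0.03 over all genes. Their odor effect was higher in KO than in Het and WT for 530 of 590, with a median difference of 1.66 and 0 passing. Of the transduction genes 11 of 12 had a higher odor effect in KO, with a median of 0.69, against 0.00 over all genes. The 12 other genes of mature olfactory neurons did not share this, with 7 higher, 5 lower and a median of 0.02. The receptor feedback genes Kdm1a, Eif2ak3 and Atf5 had a Het over WT median of 0.02. In KO mOSN, 11 of 12 transduction genes were lower than in WT with a median of -0.66 and 545 of 830 receptors with a median of -0.36, against -0.14 over all genes.

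Markers of other cells also differed between libraries, but not always in both Het libraries. The 7 immature neuron markers summed to 3114 and 3333 in KO odor and water, 4754 and 3531 in Het odor and water, and 3125 and 4083 in WT odor and water. The 5 progenitor markers summed to 1430.5 in Het odor, against 785 to 1131 in the other libraries, and the 5 macrophage markers to 721 in Het odor and 557 in Het water, against 278 to 442 in KO and WT. The collagen genes Col1a1 and Col1a2 were 746 and 278 in KO odor, against 3596 and 1050.1 in KO water, whereas the endothelial markers Pecam1, Cdh5 and Kdr were 8.45, 56.0 and 7.42 in KO odor, against 6.17, 41.8 and 3.50 in KO water. Sustentacular markers, mostly Cyp2g1 and Cyp2a5, summed to 19634 in WT water, against 25651 to 34295 elsewhere. The macrophage sum was mostly C1qa and C1qb, which were highest in both Het libraries. Cd68 in Het water (119.6) was level with KO water (119.2). Csf1r in Het water (30.8) lay below KO water (38.6) and WT odor (31.0). Aif1 in Het odor (6.12) lay below KO water (10.7) and WT odor (7.58). Members and transduction genes were low in the libraries where this sum was high. No marker was at 0, and the part of these cells in the results on the 7 genes was not tested.

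**Figure D5:**
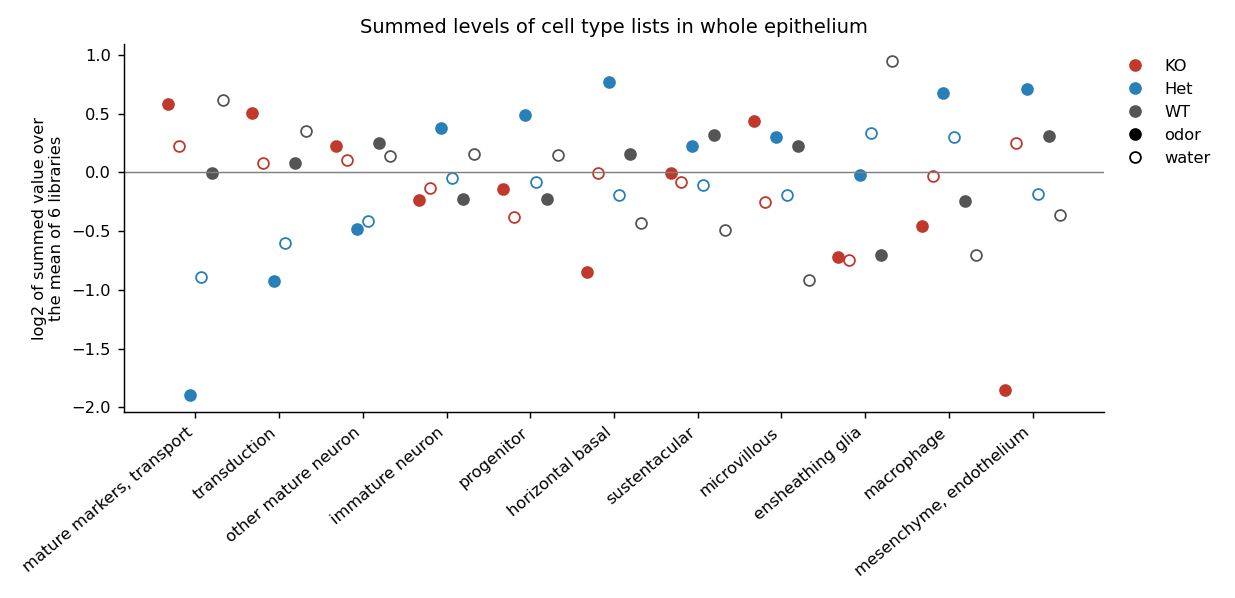
Summed deposited values of each marker list in the 6 whole-epithelium libraries, as log2 over the mean of the 6 libraries; filled points are odor and open points water. The 7 genes (first group) and the transduction list are lowest in both Het libraries, while the macrophage sum, though not each of its markers, is highest in both.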

How the data were processed

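RNA-seq values were taken from 2 tables that the authors deposited as RPKM, the unit named in the labels; the submitters' processing notes name STAR 2.3.0, Bowtie2 2.1, Picard 1.64, featureCounts and DESeq with mm9 and NCBIM37, without order or formula. Of 33 samples, 21 without RNA values were not analysed here. MOE values of all 14613 genes (100%) were whole reads times a library factor within 1e-05, exact up to a divisor shared by a gene's libraries; in simulated data 98.5% of 1990 genes came back exactly. In mOSN, 7 of 14751 rows had no values and depth is unknown. Limma 3.58.1 (R 4.3.3; eBayes with trend) used log2(value + 0.5) of genes at 0.5 or more in at least 2 libraries, with 2 residual degrees of freedom (1 for the odor effect in KO) and an adjusted p under 0.05. The labels do not say which libraries share animals, so a p-value reflects the spread among libraries and nothing wider. The planned mOSN tests could not be run on 1 pooled value per genotype. Alternatives were other pseudocounts, filters and scalings, voom, no trend, no block and left-out libraries. Named besides the members were the 3 genes most correlated with each (1 is not reported here), near paralogs, Capn5, and the 3 largest differences of a list. The members and lists were chosen with earlier results of these data known. Self-tests used simulated data.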

Additional observations from a re-analysis of the deposited data

Results flagged for a closer look

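For 6 of the 7 genes the value with odor was above that with water in KO and below it in Het and in WT. This sign pattern is shared by 16.7% of all genes. The log2 difference of the odor effect in KO from the common one in Het and WT was 2.70 for Omp, 1.89 for Ric8b, 0.97 for S100a5, 0.89 for Stoml3, 0.46 for Rtp1 and 0.38 for Rtp2. The difference itself was tested with limma and did not pass for any of them (adjusted p from 0.460 to 0.855). For Rtp2 the KO ratio was 1.00 and for S100a5 1.01, so their KO libraries were nearly equal. The collagen genes Col1a1 and Col1a2 were 746 and 278 in KO odor, against 3596 and 1050.1 in KO water, while the endothelial markers Pecam1, Cdh5 and Kdr were higher in KO odor. The part of the cells that express them in these differences was not tested.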

How the results depend on the processing

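For odor over water, limma called 2 genes higher, with 1 under median-ratio scaling or without the genotype block, 0 without the trend, 6 with voom on recovered reads and 0 to 4 with libraries left out. For Het over WT it called 0, or 24 higher and 3 lower without WT water (0 to 24 and 0 to 3 over left-out libraries), none of them a member. Het over WT kept its sign for the 7 genes in 126 of 126 values, as did the difference in odor effect in 70 of 70. With all 6 libraries, none of the Het over WT values passed the threshold (lowest limma adjusted p = 0.299). Other filters, no trend, no block and left-out KO libraries cannot move the Het over WT estimate. The 126 values thus hold repeats of the main fit and are not independent checks. Odor over water turned positive without Het libraries for Stoml3 (0.041) and Ric8b (0.084) and without WT libraries for Rtp1 (0.054) and Ric8b (0.44). KO over WT for Omp was -0.050 with quantile normalization. The cause was not tested. Over left-out libraries, odor over water spanned -1.90 to -0.17 (Omp), -0.95 to -0.38 (S100a5), -0.58 to 0.041 (Stoml3), 0.16 to 0.57 (Umodl1), -0.27 to 0.054 (Rtp1), -0.38 to -0.11 (Rtp2) and -0.68 to 0.44 (Ric8b). Het over WT spanned -3.93 to -1.43 (Omp), -2.31 to -1.54 (S100a5), -2.01 to -1.03 (Stoml3), -1.63 to -1.05 (Umodl1), -0.98 to -0.48 (Rtp1), -0.74 to -0.31 (Rtp2) and -2.12 to -0.65 (Ric8b). KO over WT spanned -1.24 to 1.46 (Omp), -0.68 to 0.29 (S100a5), -0.15 to 0.74 (Stoml3), -0.38 to 0.28 (Umodl1), -0.11 to 0.53 (Rtp1), 0.081 to 0.46 (Rtp2) and -0.71 to 1.53 (Ric8b).
In MOE, odor and water were compared within genotype by the fit itself, which holds genotype as a block. Beyond that, no paired analysis was possible because replicate numbers link no libraries across groups of 1 and the mOSN table holds 1 pooled value per genotype. With 1 library per group the error of each fit comes from how the odor or genotype effects differ among the others. Counting intervals overlapped between Het water and WT odor for Rtp2 and between KO water and WT water for Stoml3. With 1 library per group, the spread within a group could not be measured.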
